A study of Mus musculus with 27 samples.

Results

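Glutathione S-transferases of mouse dorsal skin were described here through 10 genes, chosen by gene name from the 54532 genes of the count table: Gsta3 and Gsta4 (alpha class), Gstm1, Gstm2 and Gstm5 (mu), Gstt1 and Gstt3 (theta), Gsto1 (omega), Gstp1 (pi) and Gstk1 (kappa). All 10 passed the filter on low counts and were among the 17232 genes tested. The skin came from C3H mice in 3 groups of 9 RNA sequencing libraries. TDM skin received TDM10842, in a series titled for an agonist of thyroid hormone receptors, Vehicle skin received its solvent, and Blank skin was left untreated. TDM and Vehicle skin had 2 applications of 60 µL, at 0 and 24 h, and the labels used here state no age for the mice. Nothing in the labels ties each library to its own animal. The p-values therefore cover the variation among these libraries, and some of that variation may be technical. The basal keratin gene Krt14 had 1231 to 4090 CPM over the 27 libraries, and genes of skeletal muscle were also abundant. Vehicle replicates 7 and 8 stood apart from the other Vehicle libraries in earlier results of these data, so the calls that change without them are named below. Read counts of the members ran from 114 (Gstt1) to 2872 (Gstm1) per library.

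Glutathione S-transferases are mostly soluble enzymes that join the tripeptide glutathione to electrophilic compounds, among them drugs, plant toxins and products of lipid peroxidation, so that these can be exported from the cell. Classes are named by Greek letters and differ in their preferred substrates. Many of the genes are known targets of Nrf2, a transcription factor that binds antioxidant response elements, and skin is among the tissues that express these enzymes.

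The 3 mu genes lie in 1 cluster on chromosome 3, and 1 of them, Gstm1, was the only member called by edgeR, the main test used here, in any comparison. DESeq2, an alternative, also called Gstt1 in Vehicle over Blank and Gstt3 in TDM over Blank. Promoter windows of the 3 mu genes run from 250 bases before to 50 after the annotated start in RefSeq (build GRCm38.p6). They are shown because edgeR called 1 of these neighbours only. A difference between the neighbours, or a part of any motif in it, was not tested. Capitals mark matches, on either strand, to the antioxidant response element core TGACNNNGC, the thyroid hormone receptor half-site AGGTCA, the AP-1 site TGANTCA or TATAAA. The Gstm1 window lies at chr3:108017769-108018068 on the minus strand, that of Gstm2 at chr3:107986371-107986670 on the minus strand, and that of Gstm5 at chr3:107895604-107895903 on the plus strand.
Gstm1: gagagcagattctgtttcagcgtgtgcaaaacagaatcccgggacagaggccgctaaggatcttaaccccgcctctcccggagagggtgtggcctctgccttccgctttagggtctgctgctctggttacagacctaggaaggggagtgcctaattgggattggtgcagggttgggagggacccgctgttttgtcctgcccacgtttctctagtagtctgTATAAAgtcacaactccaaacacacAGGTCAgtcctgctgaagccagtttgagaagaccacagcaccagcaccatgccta
Gstm2: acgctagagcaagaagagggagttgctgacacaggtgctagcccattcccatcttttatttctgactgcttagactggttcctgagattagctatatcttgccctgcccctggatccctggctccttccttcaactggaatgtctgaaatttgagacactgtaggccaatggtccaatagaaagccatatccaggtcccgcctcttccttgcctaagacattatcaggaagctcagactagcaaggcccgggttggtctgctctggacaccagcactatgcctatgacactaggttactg
Gstm5: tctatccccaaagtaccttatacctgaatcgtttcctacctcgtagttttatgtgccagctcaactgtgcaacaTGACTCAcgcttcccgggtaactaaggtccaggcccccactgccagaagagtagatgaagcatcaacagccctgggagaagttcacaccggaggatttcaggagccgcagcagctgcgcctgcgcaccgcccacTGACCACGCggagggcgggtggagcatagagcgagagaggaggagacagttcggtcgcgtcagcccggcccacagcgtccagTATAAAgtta
The Gstm1 window held AGGTCA at position -5 and TATAAA at -30, counted from the start site. The Gstm5 window held TGACNNNGC at -42, TGANTCA at -176 and TATAAA at 41, and the Gstm2 window held none of these letters. RefSeq windows were found for 9 of the 10 members. TGACNNNGC was also in the Gsta3 window, AGGTCA in that of Gstk1 and TGANTCA in that of Gstp1, so each motif was in 2 of 9 members. Of all 27025 genes with windows, 14% held TGACNNNGC in at least 1 window, 18.1% AGGTCA, 8.97% TGANTCA and 15.7% TATAAA. A second annotated Gstm1 window, starting at 108017924, held no match.

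In the table's coordinates (GRCm38) Gsta3 spans 21240589 to 21265661 on chromosome 1, Gsta4 78182774 to 78209349 on chromosome 9 and Gstk1 42245935 to 42250447 on chromosome 6, all on the plus strand. Gsto1 spans 47854970 to 47864790 on the plus strand of chromosome 19 and Gstp1 4035407 to 4037921 on its minus strand. All 10 members are annotated as protein coding.

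Levels were compared between genes in the authors' FPKM, fragments scaled by gene length and depth. Gstp1, the pi enzyme, was highest with a mean of 104.7 ± 16.3 FPKM (SD over 27 libraries), and Gstm1 followed with 81.8 ± 15.8. Gstm5 had 32.7 ± 6.25, Gstm2 27.5 ± 4.202 and Gsto1 19.4 ± 2.67 FPKM. Below them were Gstt1 at 14.9 ± 6.22, Gstk1 at 13.3 ± 2.12, Gsta4 at 11.6 ± 2.42, Gsta3 at 3.79 ± 1.23 and Gstt3 at 3.24 ± 0.47 FPKM. Some steps in this order were within the spread between libraries: Gsta3 exceeded Gstt3 in 16 of 27 libraries, and Gstt1 exceeded Gstk1 in 18. The steps below Gstm1, Gstm2 and Gsta4 held in all 27 libraries, and that between Gstp1 and Gstm1 in 25. The FPKM of the 10 genes summed to 296 ± 26.3 in TDM, 304 ± 34.6 in Vehicle and 338 ± 34.2 in Blank skin (SD, n = 9 each).

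**Figure D1:**
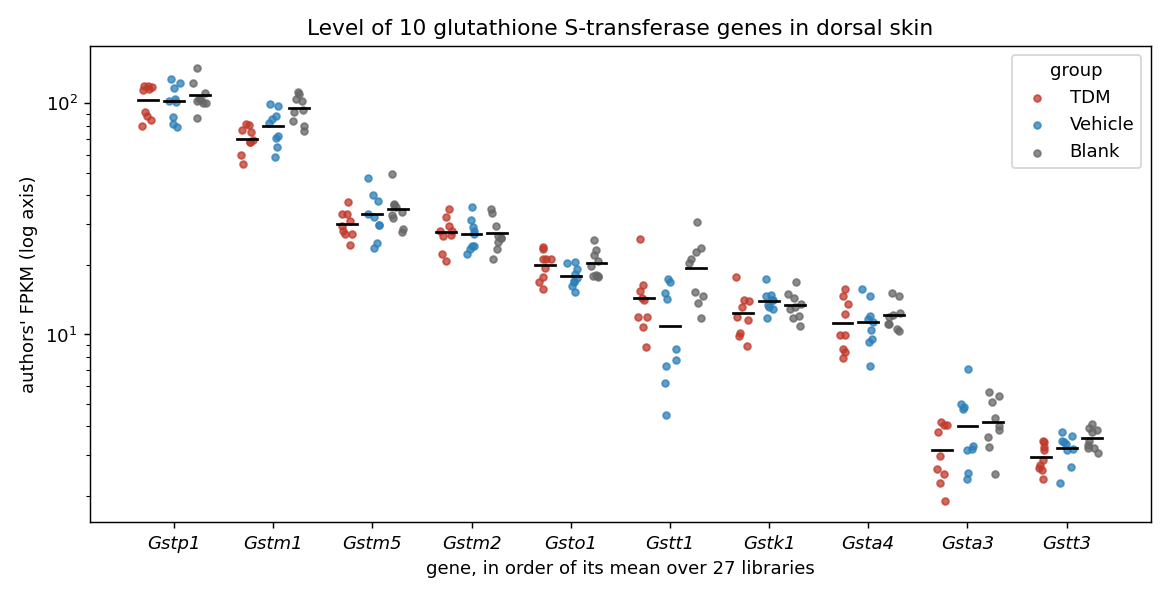
Authors' FPKM of the 10 genes on a log axis, in order of the mean over 27 libraries. Points are libraries of TDM, Vehicle and Blank skin and lines are group means; Gstp1 and Gstm1 stand above the rest, and Gsta3 and Gstt3 lie lowest.

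Changes were tested with edgeR's quasi-likelihood test, and values are given as CPM, read counts scaled to library size with TMM. Between TDM and Vehicle skin 0 of 10 members passed an adjusted p of 0.05, and 0 had an unadjusted p under 0.05; DESeq2 and limma on FPKM also called 0. Of all tested genes 23.7% were called in that comparison. Between Vehicle and Blank skin 0 of 10 were called by edgeR and 1 by DESeq2, 2 had an unadjusted p under 0.05, and 2.76% of all genes were called. Between TDM and Blank skin edgeR called 1 of 10, Gstm1, beside 16.2% of all genes, or 4.63% in the lower direction that this member took. There DESeq2 and limma on FPKM each called 2, Gstm1 and Gstt3. The 3 comparisons share groups of libraries and are not independent.

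The median log2 fold change of the members was -0.06 for TDM over Vehicle, -0.08 for Vehicle over Blank and -0.15 for TDM over Blank. Over all tested genes the median was 0.013, 0.022 and -0.019 in the same comparisons. In absolute size the members had medians of 0.15, 0.08 and 0.15 on the log2 scale, beside 0.21, 0.18 and 0.19 over all tested genes. For all 10 members the CPM ranges of the groups overlapped in every comparison. Ranges that did not overlap were rare among all tested genes too, at 0.575% for TDM and Vehicle, 0.128% for Vehicle and Blank and 2.18% for TDM and Blank skin. The 95% intervals of the members bound the TDM over Vehicle ratio between 0.592 and 1.86, the outer limits being those of Gsta3 and Gstt1.

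**Figure D2:**
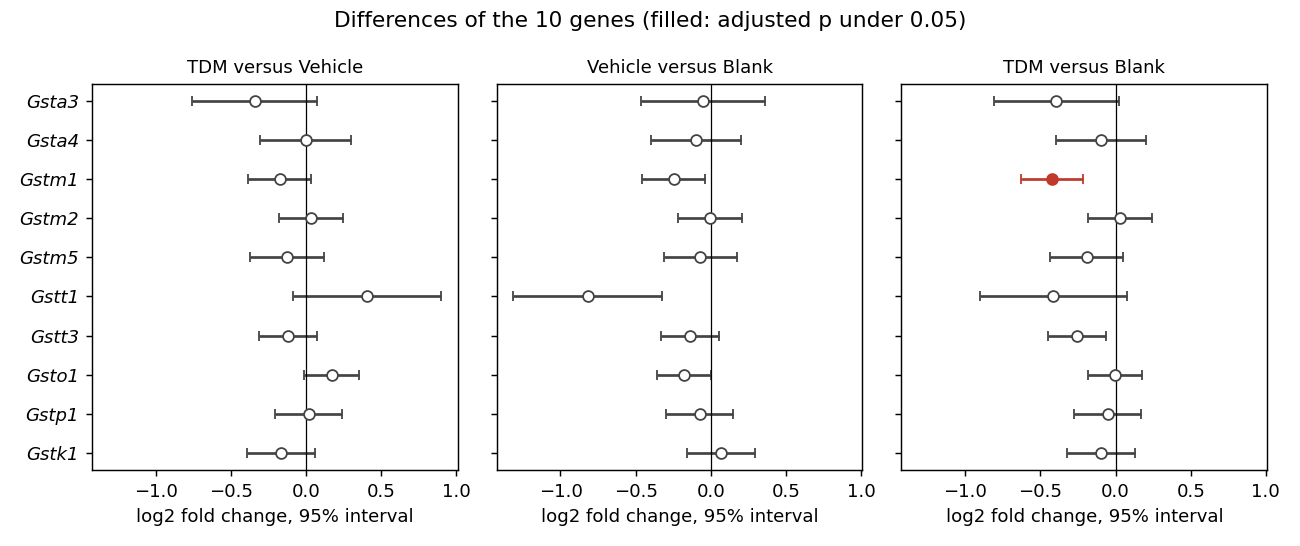
Log2 fold changes of the 10 genes from edgeR, with 95% intervals derived from its F statistic, for TDM over Vehicle, Vehicle over Blank and TDM over Blank. The filled point, Gstm1 in TDM over Blank at -0.42, is the only one with an adjusted p under 0.05.

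Gstm1 (ENSMUSG00000058135, chromosome 3, 108012255 to 108017973, minus strand), a mu enzyme that conjugates epoxides and other electrophiles, was lower in TDM than in Blank skin. Its CPM had a lowest, median and highest value of 81.5, 105 and 122 in TDM, 86.1, 123 and 146 in Vehicle, and 113, 139 and 169 in Blank libraries. All 9 TDM libraries lay below the Blank median, although the highest TDM values overlapped the lowest Blank ones. The mean was 105 ± 13.5 CPM in TDM and 141 ± 19.4 CPM in Blank skin (SD, n = 9 each), a log2 fold change of -0.42 ± 0.10 SE (0.746-fold, adjusted p = 0.00471). The authors' deposited table gives -0.44 with an adjusted p of 0.000103. Vehicle skin, at 119 ± 21.02 CPM, lay between: TDM over Vehicle was -0.18 (95% interval -0.38 to 0.03, adjusted p = 0.212) and Vehicle over Blank -0.25 (-0.46 to -0.04, adjusted p = 0.131). All 9 TDM libraries were also below the Vehicle median. Without Vehicle replicates 7 and 8, TDM over Vehicle was -0.21 (adjusted p = 0.143), and with a skeletal muscle score as a covariate its sign changed (0.018, adjusted p = 0.964).

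Marker genes of several lists also differed between TDM and Blank skin, where 16.2% of all genes were called. Of 15 proliferation genes 15 were higher in TDM than in Blank skin, with a summed level of 768 to 1566 CPM in TDM and 316 to 732 CPM in Blank libraries, and 10 of 12 hair matrix and root sheath genes were higher, with sums of 74.6 to 520.0 CPM in TDM and 21.9 to 98.6 CPM in Blank libraries. Of 18 sebaceous gland genes 1 was higher and 6 were lower. Their part in the Gstm1 result was not tested. With the skeletal muscle score as a covariate the Gstm1 value was -0.32 on the log2 scale (adjusted p = 0.0262). In that fit 3229 genes were called between TDM and Blank skin, beside 2793 without the covariate. The part of muscle content in the Gstm1 result was not tested either. In bulk tissue, fewer cells of a type and less RNA per cell cannot be told apart. Stretches of 50 bases shared with other annotated genes made up 18.9% of Gstm1 transcript sequence, most with Gstm2-ps1, so part of its count is uncertain.

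The mu neighbours were not called. Gstm2 averaged 47.2 ± 7.26 CPM in TDM, 46.2 ± 7.23 in Vehicle and 46.3 ± 7.44 in Blank skin. TDM over Blank was 0.03 on the log2 scale for Gstm2 (95% interval -0.18 to 0.24). Gstm5 averaged 39.2 ± 5.38 CPM in TDM, 42.7 ± 9.61 in Vehicle and 44.8 ± 8.38 in Blank skin, with -0.19 for TDM over Blank (-0.44 to 0.05). Whether Gstm1 differed from its neighbours in response was not tested.

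**Figure D3:**
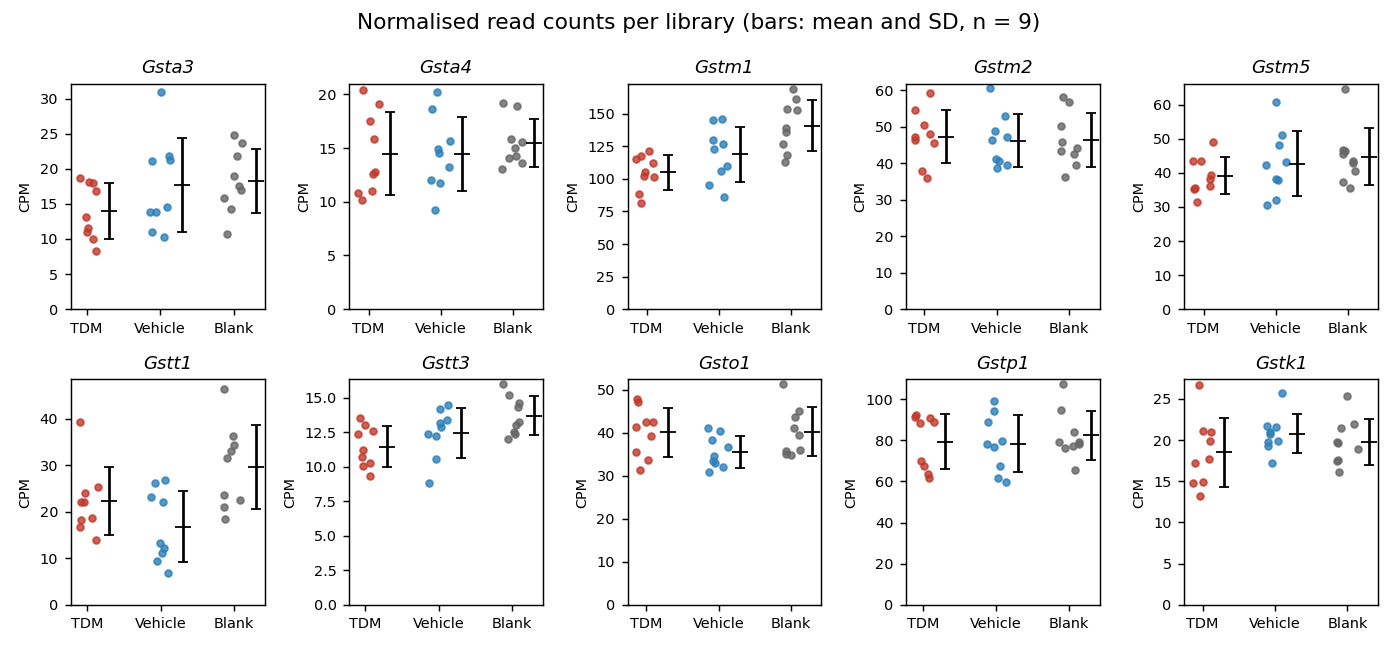
CPM of each of the 10 genes in every library of TDM, Vehicle and Blank skin, with mean and SD (n = 9) beside the points and axes from 0. Gstm1 is lowest in TDM and highest in Blank skin with overlapping ranges, and Gstt1 is widely spread in every group.

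Gstt1 (ENSMUSG00000001663, chromosome 10, 75783813 to 75798584, minus strand), a theta enzyme that conjugates small halogenated compounds, varied most within groups among the 10. The lowest, median and highest values were 13.9, 22.1 and 39.2 CPM in TDM, 6.85, 13.3 and 26.9 CPM in Vehicle, and 18.4, 31.6 and 46.5 CPM in Blank libraries. All 9 Vehicle libraries lay below the Blank median and all 9 TDM libraries above the Vehicle median, with overlapping ranges. Vehicle over Blank was -0.82 ± 0.24 SE on the log2 scale (95% interval -1.31 to -0.33, adjusted p = 0.0558), just outside the threshold. It passed in 11 of 37 alternatives (adjusted p 0.0195 to 0.166 over all), among them DESeq2 (adjusted p = 0.0195) and the replicate block (adjusted p = 0.0407). In 7 of the 11 a single library was left out: Blank replicate 2 or 3, TDM replicate 7 or 9, or Vehicle replicate 4, 5 or 7. Without Vehicle replicates 7 and 8 the value was -0.88 (adjusted p = 0.0649). The authors' deposited table gives -0.83 with an adjusted p of 0.0234. TDM over Vehicle was 0.41 (-0.09 to 0.90, adjusted p = 0.224) and TDM over Blank -0.41 (-0.90 to 0.08, adjusted p = 0.25). TDM over Vehicle was 0.26 without TDM replicate 9, the highest TDM library (adjusted p = 0.452), and 0.12 with the muscle covariate (adjusted p = 0.9).

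The spread of Gstt1 within groups was 0.54 on the log2 CPM scale, wider than in 90.4% of the 2811 tested genes of like level. Between members and gene lists 170 relations of deviations from group means were computed. By Pearson's r 10 had an adjusted p under 0.05, 4 of them of Gstt1, and by Spearman's rho 14 had, 5 of them of Gstt1. With the mean of 10 basal keratinocyte genes Pearson's r was -0.77 and Spearman's rho -0.76 over 27 libraries (permutation test within groups, adjusted p = 0.00765 and 0.00425), and r was -0.73 without the 2 libraries farthest from the median. For 7 vessel genes r was 0.70 and rho 0.75 (permutation adjusted p = 0.0182 and 0.00718; r = 0.65 without 2 libraries). The 18 Nrf2 regulators and targets gave r = 0.69 and rho = 0.69 (permutation adjusted p = 0.00765 and 0.00718; r = 0.65 without 2), and 14 fibroblast and matrix genes gave r = 0.60 and rho = 0.60 (permutation adjusted p = 0.0498 and 0.0258; r = 0.52 without 2). Immune cell genes passed by rho alone (r = 0.57 and rho = 0.63, permutation adjusted p = 0.0606 and 0.0148; r = 0.48 without 2). The other 6 relations by Pearson's r were of the other family genes with Gsto1 (0.72), Gsta4 (0.64), Gstk1 (0.62) and Gstm1 (0.55), and of Gsto1 with adipocyte (0.49) and liver genes (0.51). Their permutation adjusted p for r ran from 0.0108 for Gsto1 with the family genes to 0.0485 for Gstm1. For rho, Gstk1 and Gstm1 with the family genes did not pass (0.0708 and 0.0688). By rho alone Gstk1 passed with skeletal muscle (0.65, permutation adjusted p = 0.00718) and epidermal differentiation genes (-0.63, 0.0375). So did Gstm2 with the list of peroxidases, glutaredoxins and related genes (0.68, 0.00718), and Gsta4 with adipocyte (0.61, 0.00718) and liver genes (0.56, 0.0318). Between Vehicle and Blank skin 11 of 18 epidermal differentiation genes were lower, beside 2.76% of all genes called. Their sums were 680 to 2245 CPM in Vehicle and 1314 to 6557 CPM in Blank libraries. Of 14 fibroblast and matrix genes 2 were lower, with sums of 4945 to 37925 CPM in Vehicle and 20385 to 44915 CPM in Blank libraries. The relation of Gstt1 with epidermal differentiation genes did not pass (r = 0.42, permutation adjusted p = 0.083). For the lists with the strongest relations to Gstt1, edgeR called 0 of 10 basal keratinocyte, 0 of 7 vessel and 0 of 18 Nrf2 genes between Vehicle and Blank skin. DESeq2 called 1, 2 and 1 of them. The part of any of these lists in the Gstt1 values was not tested.

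Gstt3 (ENSMUSG00000001665), the theta gene at 75774115 to 75781414 on the same strand of chromosome 10, had the lowest level per length and little spread. Its lowest, median and highest values were 9.37, 11.2 and 13.6 CPM in TDM, 8.83, 12.9 and 14.5 CPM in Vehicle, and 12.0, 13.3 and 16.0 CPM in Blank libraries. In 8 of 9 TDM libraries it lay below the Blank median. TDM over Blank was -0.26 ± 0.09 SE (95% interval -0.45 to -0.07, adjusted p = 0.0583), which passed in 13 of 37 alternatives, 6 of them leaving out TDM replicate 5 or 9 or Vehicle replicate 1, 3, 7 or 8 (adjusted p 0.0246 to 0.116 over all 37), and with the replicate block it was 0.0255. The authors' deposited table gives an adjusted p of 0.0228. Of its transcript sequence 12.5% was shared with other genes.

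The alpha genes were not called. Gsta3, whose mouse enzyme conjugates activated aflatoxin, averaged 13.9 ± 3.99 CPM in TDM, 17.6 ± 6.68 in Vehicle and 18.3 ± 4.56 in Blank skin. Its TDM over Vehicle value was -0.34 on the log2 scale (95% interval -0.76 to 0.07). Gsta4, which conjugates aldehydes from lipid peroxidation, averaged 14.5 ± 3.85 CPM in TDM, 14.5 ± 3.44 in Vehicle and 15.5 ± 2.22 in Blank skin. For TDM over Vehicle the Gsta4 interval was -0.30 to 0.30.

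Among the remaining classes, Gsto1, an omega enzyme that reduces dehydroascorbate, averaged 40.1 ± 5.73 CPM in TDM, 35.6 ± 3.69 in Vehicle and 40.2 ± 5.61 in Blank skin. Its TDM over Vehicle value of 0.17 had an interval of -0.01 to 0.35 (adjusted p = 0.156). Gstp1 averaged 79.4 ± 13.3 CPM in TDM, 78.4 ± 13.9 in Vehicle and 82.4 ± 12.0 in Blank skin, with an interval of -0.20 to 0.24 for TDM over Vehicle. With 33.7% of its transcript sequence shared, most with Gstp2, its count is uncertain. Gstk1, a kappa enzyme of mitochondria and peroxisomes, averaged 18.5 ± 4.17 CPM in TDM, 20.8 ± 2.34 in Vehicle and 19.8 ± 2.80 in Blank skin. Its TDM over Vehicle value was -0.17 (-0.39 to 0.06).

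Members varied together only in part. Of 45 pairs, 31 had a positive r of deviations from group means and 2 had an adjusted p for r under 0.05 by permutation within groups. Gsta4 and Gsto1 had r = 0.65 and rho = 0.64 (permutation adjusted p = 0.0202 and 0.036; r = 0.61 without the 2 farthest libraries). Gsta4 and Gstk1 had r = 0.63 and rho = 0.59 (permutation adjusted p = 0.0247 and 0.0749; r = 0.60 without 2). The points of both relations share each library's depth and tissue content. Outside the family, the genes most like Gstm1 over 27 libraries were Mpv17 (r = 0.85), Akap7 (0.83) and Map1lc3b (0.82), and those most like Gstt1 were Cnrip1 (0.88), Fxyd2 (0.87) and Il10rb (0.87), the highest of all tested genes by choice.

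**Figure D4:**
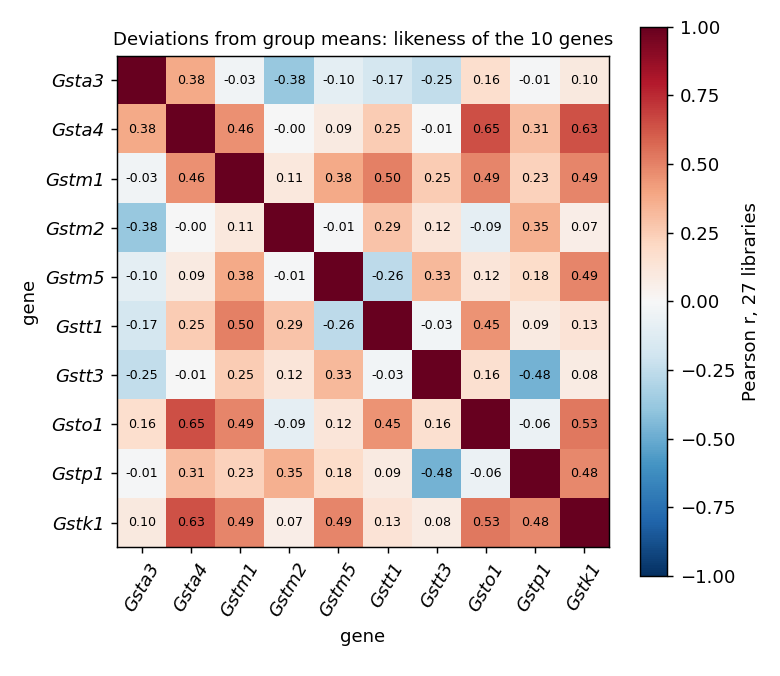
Pearson r between the 10 genes over 27 libraries, from log2 CPM minus the group mean. The highest values are 0.65 for Gsta4 with Gsto1 and 0.63 for Gsta4 with Gstk1, and the lowest is -0.48 for Gstt3 with Gstp1.

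Several family genes outside the 10 members were called, with Mgst1 lower and Gstcd higher in TDM than in both other groups. Of 16 tested, 3 were higher and 2 lower in TDM than in Vehicle skin, beside 23.7% of all genes called. In Vehicle over Blank 0 were higher and 1 was lower, beside 2.76% of all genes. In TDM over Blank 1 was higher and 2 were lower, beside 16.2%. DESeq2 called 6, 2 and 3 of them in these comparisons, adding Gstm4 in TDM over Vehicle and Gsta1 in Vehicle over Blank. Mgst1, a membrane-bound glutathione transferase, had a lowest, median and highest value of 166, 201 and 262 CPM in TDM, 246, 308 and 384 CPM in Vehicle, and 223, 295 and 406 CPM in Blank libraries. All 9 TDM libraries lay below the medians of both other groups. Its log2 fold change was -0.62 ± 0.12 SE for TDM over Vehicle (adjusted p = 0.00114) and -0.52 ± 0.12 for TDM over Blank (adjusted p = 0.00254). Gstcd, which encodes a protein with a transferase C-terminal domain, rose to 12.9 ± 2.29 CPM in TDM, against 8.91 ± 2.94 in Vehicle and 7.44 ± 1.59 in Blank skin (adjusted p = 0.0188 and 0.00121). Without Vehicle replicates 7 and 8, TDM over Vehicle was -0.69 for Mgst1 and 0.73 for Gstcd, both called (adjusted p = 0.000138 and 0.000618).

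The low alpha genes Gsta1 and Gsta2 were higher in TDM than in Vehicle skin. Gsta1 averaged 1.35 ± 0.85 CPM in TDM, 0.42 ± 0.31 in Vehicle and 1.05 ± 0.57 in Blank skin (TDM over Vehicle 1.66 on the log2 scale, adjusted p = 0.00752). Vehicle over Blank was -1.30 for Gsta1, called by DESeq2 but not by edgeR (edgeR adjusted p = 0.0775). The authors' deposited table gives -1.32 with an adjusted p of 0.0311. Gsta2 averaged 2.61 ± 1.01 CPM in TDM, 1.59 ± 0.34 in Vehicle and 3.33 ± 1.12 in Blank skin, and was called in TDM over Vehicle (0.71, adjusted p = 0.0257) and in Vehicle over Blank (-1.06, adjusted p = 0.0323). Other genes shared 90.5% of Gsta1 transcript sequence, most with Gm3776 (75.7%), and 49.8% of Gsta2 transcript sequence, most with Gsta1 (36%). The 2 counts cannot be cleanly separated from each other or from those of such genes. The Gsta2 call in TDM over Vehicle was lost without TDM replicate 2 or Vehicle replicate 1 or 8. That in Vehicle over Blank was lost without any 1 of Blank replicates 4, 6, 7 and 9 and Vehicle replicates 1, 3, 6 and 8. Each of those fits, except that without Blank replicate 7, called 0 genes in the whole comparison. The Gsta2 call in Vehicle over Blank was also lost without Vehicle replicates 7 and 8 together (-1.05, adjusted p = 0.0508).

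Mgst3, a membrane transferase named after its values were seen, was lower in TDM than in Vehicle skin (-0.43, adjusted p = 0.0404). That call was lost without TDM replicate 1, 2, 6, 8 or 9 or Vehicle replicate 1, 2, 3, 4 or 5. Hpgds, the hematopoietic prostaglandin D synthase, averaged 33.8 ± 9.54 CPM in TDM, 35.2 ± 9.12 in Vehicle and 48.0 ± 9.75 in Blank skin and was lower in TDM than in Blank skin (-0.50, adjusted p = 0.0382). It was not called without Blank replicate 6, 7, 8 or 9 or else TDM replicate 3, 5, 7 or 8. Skeletal muscle genes moved with the TDM and Vehicle groups: 26 of 28 were lower in TDM, with sums of 24784 to 63252 CPM in TDM and 35143 to 120658 CPM in Vehicle libraries. With the muscle score as a covariate none of the 5 calls between TDM and Vehicle skin held (adjusted p = 0.0644 for Mgst1). Over all tested genes, calls in that comparison numbered 4090 without the covariate and 240 with it. Between TDM and Blank skin the calls of Mgst1 and Gstcd held, where 2793 genes were called without the covariate and 3229 with it. The part of muscle content in these values was not tested.

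**Figure D5:**
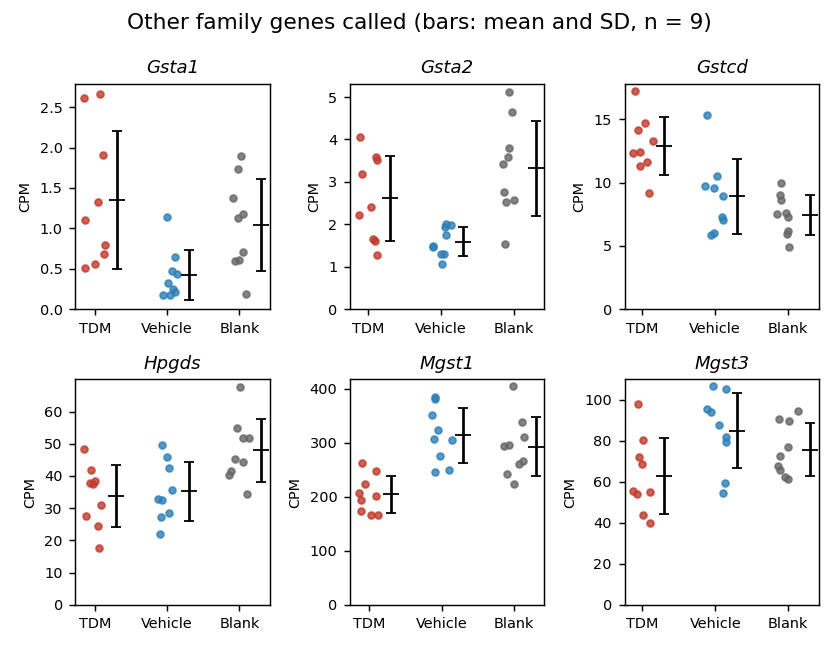
CPM per library, with mean and SD (n = 9), of the 6 other family genes called by edgeR in any comparison, with axes from 0. Mgst1 is lower in TDM than in Vehicle and Blank skin and Gstcd is higher; Gsta1 and Gsta2 are low throughout.

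A list of genes that make, break down and recycle glutathione, the transporter genes Slc7a11 and Slc3a2 included, had 19 tested genes. Of these 3 were higher and 0 lower in TDM than in Vehicle skin, and 0 higher and 2 lower in Vehicle than in Blank. In TDM over Blank 3 were higher and 0 lower. The shares called over all genes in the same comparisons were 23.7%, 2.76% and 16.2%. The synthesis genes Gclc, Gclm and Gss were not called in TDM over Vehicle (edgeR adjusted p = 0.319, 0.678 and 0.236). Dpep1, a dipeptidase that splits cysteinylglycine, averaged 96.6 ± 41.3 CPM in TDM, 37.8 ± 18.5 in Vehicle and 84.3 ± 34.1 in Blank skin (adjusted p = 0.0034 for TDM over Vehicle and 0.0366 for Vehicle over Blank). Ggct, which breaks down gamma-glutamyl peptides, averaged 30.4 ± 14.7 CPM in TDM, 15.9 ± 4.10 in Vehicle and 35.0 ± 14.4 in Blank skin (adjusted p = 0.0136 and 0.0323 in the same comparisons). Both Vehicle over Blank calls were lost without any 1 of Blank replicates 4, 6, 7 and 9 and Vehicle replicates 1, 3, 6 and 8. Each of those fits, except that without Blank replicate 7, called 0 genes in the whole comparison. The Dpep1 call was also lost without Vehicle replicate 9. Without Vehicle replicates 7 and 8 together the Vehicle over Blank values were -1.21 for Dpep1 and -1.12 for Ggct, neither called (adjusted p = 0.0552 and 0.0538). G6pdx, which supplies NADPH, was higher in TDM than in Vehicle skin (0.57, adjusted p = 0.0385), a call lost without TDM replicate 1, 2, 5, 6 or 8 or Vehicle replicate 1, 2, 3, 4, 5, 6 or 8.

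Glutathione synthetase, Gss, averaged 21.7 ± 3.38 CPM in TDM, 19.4 ± 1.69 in Vehicle and 16.0 ± 2.66 in Blank skin, and rose in TDM over Blank (0.45, adjusted p = 0.00255). Lap3, a peptidase, rose in the same comparison (0.55, adjusted p = 0.00712), as did the glutathione reductase Gsr (0.24, adjusted p = 0.0464), whose call held in 11 of 37 alternatives. The Gsr call was lost in 18 of 27 fits without 1 library, those of Blank replicates 1, 2, 3, 5, 6, 7 and 9, TDM replicates 1, 2, 4, 5, 6 and 8 and Vehicle replicates 1, 3, 5, 8 and 9. The list of peroxidases and glutaredoxins also held Esd, Hagh and Glo1, which are neither. Of its 14 tested genes 2 were higher and 1, Hagh, lower in TDM than in Vehicle skin, beside 23.7% of all genes called. In Vehicle over Blank and TDM over Blank the shares over all genes were 2.76% and 16.2%. Gpx7 (0.76, adjusted p = 0.0107) and Gpx8 (0.42, adjusted p = 0.0159), both of the endoplasmic reticulum, were higher in TDM than in Vehicle skin. Hagh was lower (-0.24, adjusted p = 0.0389). Glrx, a glutaredoxin, was lower in TDM than in Blank skin (-0.42, adjusted p = 0.033), and no other gene of that list was called there. The Hagh call was lost without TDM replicate 1, 2, 6, 8 or 9 or Vehicle replicate 2, 3 or 5, and the Glrx call without Blank replicate 7 or 9 or TDM replicate 3, 4, 5, 7 or 8. Between Vehicle and Blank skin edgeR and DESeq2 called 0 of the 14, and 3 had an unadjusted p under 0.05.

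Of 18 Nrf2 regulators and targets 2 were higher and 1 lower in TDM than in Vehicle skin. Over all genes 23.7% were called there, 2.76% in Vehicle over Blank and 16.2% in TDM over Blank. The called genes of the list were Cbr3, a carbonyl reductase (0.63, adjusted p = 0.00604), Ugdh, which makes UDP-glucuronate (0.39, adjusted p = 0.0166), and Aox1, an aldehyde oxidase (-0.64, adjusted p = 0.00592). Ugdh was also higher in TDM than in Blank skin (0.34, adjusted p = 0.0383), a call lost without Blank replicate 1, 3, 5, 7 or 8, TDM replicate 1, 2, 5 or 8 or Vehicle replicate 1, 3 or 8. Between Vehicle and Blank skin edgeR called 0 of the 18 and DESeq2 1, and 4 had an unadjusted p under 0.05.

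Of 6 exporters of glutathione conjugates 1 was called, in 2 comparisons. The shares called over all genes were 23.7% for TDM over Vehicle, 2.76% for Vehicle over Blank and 16.2% for TDM over Blank. Abcc5, a transporter of organic anions, averaged 108 ± 9.78 CPM in TDM, 153 ± 24.0 in Vehicle and 114 ± 18.5 in Blank skin. It was lower in TDM than in Vehicle (-0.50, adjusted p = 0.0015) and higher in Vehicle than in Blank (0.42, adjusted p = 0.0323). The second call was lost without any 1 of Blank replicates 4, 6, 7 and 9 and Vehicle replicates 1, 3, 6 and 8. Each of those fits, except that without Blank replicate 7, called 0 genes in the whole comparison. Between TDM and Blank skin edgeR called 0 of the 6 and DESeq2 1, and 2 had an unadjusted p under 0.05. With the muscle score as a covariate none of the calls of these 4 lists between TDM and Vehicle skin held. Over all tested genes, calls in that comparison numbered 4090 without the covariate and 240 with it, so such losses were general.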

How the data were processed

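The authors' deposited table holds 27 columns of read counts per gene without normalization and 27 of FPKM, with gene lengths, per the file headers. It also holds the authors' log2 fold changes and p-values, without naming the tool. Bowtie 0.12.2 and the mm9 build are named, per the submitters' processing notes, yet of 54409 table genes present in GENCODE M21, an annotation of GRCm38, 98.26% had the coordinates given there, 9 of the 10 members included, so coordinates are those of the table. The labels' protocols speak of retina while the tissue is labelled dorsal skin. Gene names turned into dates were resolved by gene ID.

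Totals ran from 15412332 to 17599066 reads per library. Replicates were checked for double deposits, and the closest of 108 pairs within groups still differed by a chi-square of 8.67 for each degree of freedom. After filterByExpr with a minimum count of 10 and a minimum total of 15, which kept 99.86% of reads, TMM factors were computed and all 27 libraries entered 1 model in edgeR 4.0.16 (glmQLFTest, robust) in R 4.3.3. P-values were Benjamini-Hochberg adjusted over all tested genes and called under 0.05. Deviations are of log2 CPM with a prior count of 2, with 100000 permutations within groups. On simulated TDM versus Vehicle counts of 17090 genes, the fit called 96 of 100 genes given a 2-fold change, 70 of 100 given a 1.5-fold change, and 13 that were given none.

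All members are named, and up to 4 called genes with the smallest p from each other list and comparison. The members and lists were chosen with earlier results of these data known. Relations of members with marker lists were added after seeing the data. Alternatives were DESeq2 1.42.0, limma 3.58.1 on log2(FPKM + 1) and log2(FPKM + 0.1), RLE scaling, no filter, a mean of at least 1 CPM, a fit of only the groups compared, a replicate block, a skeletal muscle covariate, and libraries left out. Figures were drawn with matplotlib 3.10.9.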

Additional observations from a re-analysis of the deposited data

Results flagged for a closer look

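In 2 of 30 sets of 9 libraries, 1 library lay far from the others, where chance gives about 1 in 20. Gstm5 had 64.5 CPM in Blank replicate 5, against 46.7 CPM in the next highest Blank library. Gstt1 had 39.2 CPM in TDM replicate 9, against 25.3 CPM in the next highest TDM library.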

How the results depend on the processing

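Of 1110 refits of a member's fold change, 1032 kept direction and side of the threshold, 24 newly passed it, 0 lost it, and 54 changed sign, none of them called. Gstm1 in TDM over Blank was called in all 37 alternatives. With the muscle covariate signs changed in TDM over Vehicle for Gsta4 (0.14), Gstm1 (0.018), Gstm2 (-0.072), Gstm5 (0.13) and Gstk1 (0.042), in Vehicle over Blank for Gstm2 (0.036) and Gstk1 (-0.023), and in TDM over Blank for Gstm2 (-0.035), Gstp1 (0.049) and Gstk1 (0.020). Without Vehicle replicates 7 and 8, Gsta4 was 0.017 in TDM over Vehicle. Leaving out 1 library gave signs of both kinds in TDM over Vehicle for Gsta4 (-0.078 to 0.072), Gstm2 (-0.024 to 0.091) and Gstp1 (-0.024 to 0.058), in Vehicle over Blank for Gsta3 (-0.20 to 0.020), Gstm2 (-0.061 to 0.043) and Gstm5 (-0.15 to 0.018), and in TDM over Blank for Gstm2 (-0.017 to 0.076), Gsto1 (-0.052 to 0.034) and Gstp1 (-0.092 to 0.0019). Members called in Vehicle versus Blank numbered 1 (Gstt1) with DESeq2, the replicate block and both FPKM fits, and 0 to 1 without 1 library. In TDM versus Blank they numbered 2 (Gstm1 and Gstt3) with those 4, a mean of at least 1 CPM, only the groups compared, and without Vehicle replicates 7 and 8, and 1 to 2 without 1 library. Genes called in TDM versus Vehicle numbered 4090, but 240 with the muscle covariate (3074 to 5537 without 1 library). In Vehicle versus Blank they numbered 475, but 1433 with DESeq2, 2 without a filter, 0 with the muscle covariate, 84 without Vehicle replicates 7 and 8, and 0 to 1289 without 1 library, where leaving out Blank replicate 4, 6 or 9, or else Vehicle replicate 1, 3, 6 or 8, gave 0. TDM versus Blank gave 2307 to 3073 without 1 library. The cause was not tested. Deviations of same-numbered libraries had a median r of 0.06 for TDM and Vehicle, -0.06 for TDM and Blank and 0.04 for Vehicle and Blank. In that order 3, 4 and 4 of 9 pairs had r over 0.1, the highest being 0.38 for TDM and Blank. The same number was the best match in 1, 3 and 3 of 9. Whether replicate numbers mark a shared factor was not tested. The replicate block gave 3946 genes called in TDM versus Vehicle, 598 in Vehicle versus Blank and 2621 in TDM versus Blank. The order of levels was the same for 10 of 10 members in CPM per kilobase. Both measures scale by gene length, so this cannot check the lengths used. In CPM without length scaling Gstm1 averaged 122 and Gstp1 80.1 over 27 libraries, the reverse of their FPKM order. The order was also reversed for Gstm2 (46.6) and Gstm5 (42.2) and for Gsta3 (16.6) and Gsta4 (14.8). The place of Gstp1 above Gstm1 thus rests on the gene lengths used, 757 and 1473 bases. Counts of Gsta1 were low, at 0.17 to 2.66 CPM per library.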
